A study of Rattus norvegicus with 7 samples.

Results

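miR-221 and miR-222 are a pair of microRNAs cut from neighbouring hairpins, and they were followed here in rat liver together with their star arms, miR-221* and miR-222*. Members were taken by name from the array's probe annotation, which gave 4 of the 677 miRNAs on the array, each with 2 probes. The livers came from adult male Sprague-Dawley rats of 2 groups, PFOS and control. PFOS rats ate for 28 days a diet holding 50 mg/kg of potassium perfluorooctanesulfonate (PFOS, a fluorinated surfactant that persists in the body) and gave 4 arrays, and control rats ate the control diet over the same time and gave 3, since the submitters left out a control that failed their quality checks. Each array held Cy3-labelled total RNA of 1 rat. Whole liver was used, so more cells of a type and more RNA per cell cannot be told apart. The study asked how hepatic miRNAs differ after dietary PFOS in the setting of thyroid hormone homeostasis.

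A microRNA is a short RNA that pairs through its seed, bases 2 to 8, with sites in messenger RNAs and lowers their translation or stability. miR-221 and miR-222 share a seed and are known mainly from human cells as repressors of the cyclin-dependent kinase inhibitors CDKN1B (p27) and CDKN1C (p57) and of the receptor KIT. In liver they are known for being raised in hepatocellular carcinoma and in activated stellate cells, and they are also made by endothelial cells. In the array's older names a star marks the arm of a hairpin held to be the minor one. For miR-221 and miR-222 the unstarred name is taken as the 3′ arm and the star as the 5′ arm.

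The mature sequences are shown because the seed shared by the pair and the bases outside it bear on what each probe could read. All 4 members matched RefSeq by this naming (GRCr8). The seed is in capitals.
miR-221 (rno-miR-221-3p): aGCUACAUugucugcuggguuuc
miR-222 (rno-miR-222-3p): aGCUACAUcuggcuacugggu
miR-221* (rno-miR-221-5p): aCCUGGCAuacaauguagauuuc
miR-222* (rno-miR-222-5p): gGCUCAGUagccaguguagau
miR-221 and miR-222 had their first 8 bases in common. Over the 21 positions compared without gaps they had the same base at 11 and differed at 10. Of 693 mature rat miRNAs in the RefSeq table, the seed was found in these 2. The seed of miR-221* occurred in 1 of the 693, itself, and likewise that of miR-222*. The array's probe sequences were not used here.

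The hairpins are shown to place both arms, which are in capitals.
Mir222, chrX:6022621-6022723, + strand, GRCr8: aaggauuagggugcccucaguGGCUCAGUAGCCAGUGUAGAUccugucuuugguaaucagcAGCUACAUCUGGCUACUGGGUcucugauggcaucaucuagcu
Mir221, chrX:6023182-6023290, + strand, GRCr8: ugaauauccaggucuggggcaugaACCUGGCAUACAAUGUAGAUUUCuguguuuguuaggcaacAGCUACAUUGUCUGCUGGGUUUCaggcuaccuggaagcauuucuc
Both are annotated as miRNA genes on the same strand of chromosome X with 458 bases between them and no gene starting between. In RefSeq's order of gene starts the one before them is the long non-coding RNA LOC120099384, and the one after them is the pseudogene Fam156a-ps2. Whether a gene that starts earlier extends over the hairpins was not looked at.

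Of the 4 members, miR-221 (rno-miR-221) was measured, while miR-222 (rno-miR-222) and both star arms were not well above background on any array. A spot was called well above background by the scanner software, and detection of a miRNA required, for at least 1 of its probes, that flag on more than 50% of the spots left after outliers were removed. By this rule miR-221 was detected on 4 of 4 PFOS arrays and on 2 of 3 control arrays, and miR-222, miR-221* and miR-222* were detected on 0 of 7. Of the 677 miRNAs, 7 arrays detected 123 in common, and 458 had no detection at all. Those tested numbered 175, namely any miRNA with detection on at least 3 PFOS arrays or on every control array. Of the members, 1 of 4 was tested. That member, miR-221, met the rule only through the PFOS arrays, the group in which it was higher.

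Spots of miR-221 had the flag more often on PFOS arrays than on control arrays. The 10 spots of a probe on an array are copies and not separate livers. Of the 80 spots on PFOS arrays, 78 were well above background, against 17 of the 60 spots on control arrays. The probe A_26_P00001505 had the flag on 37 of 39 kept spots in PFOS livers and on 0 of 30 in control livers. The probe A_26_P00002590 had it on 39 of 39 kept spots in PFOS livers and on 16 of 29 in control livers. On control replicate 2 only 2 of 10 spots of A_26_P00002590 were flagged, which left miR-221 below the 50% rule there, although the software's own call per miRNA was positive on all 7 arrays. These flags were set on signals that had not been scaled between arrays. Brightness also differed between the groups in general, and on PFOS arrays the miRNAs detected throughout had a median signal before scaling of 226 to 326, against 133 to 176 on control arrays.

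**Figure D1:**
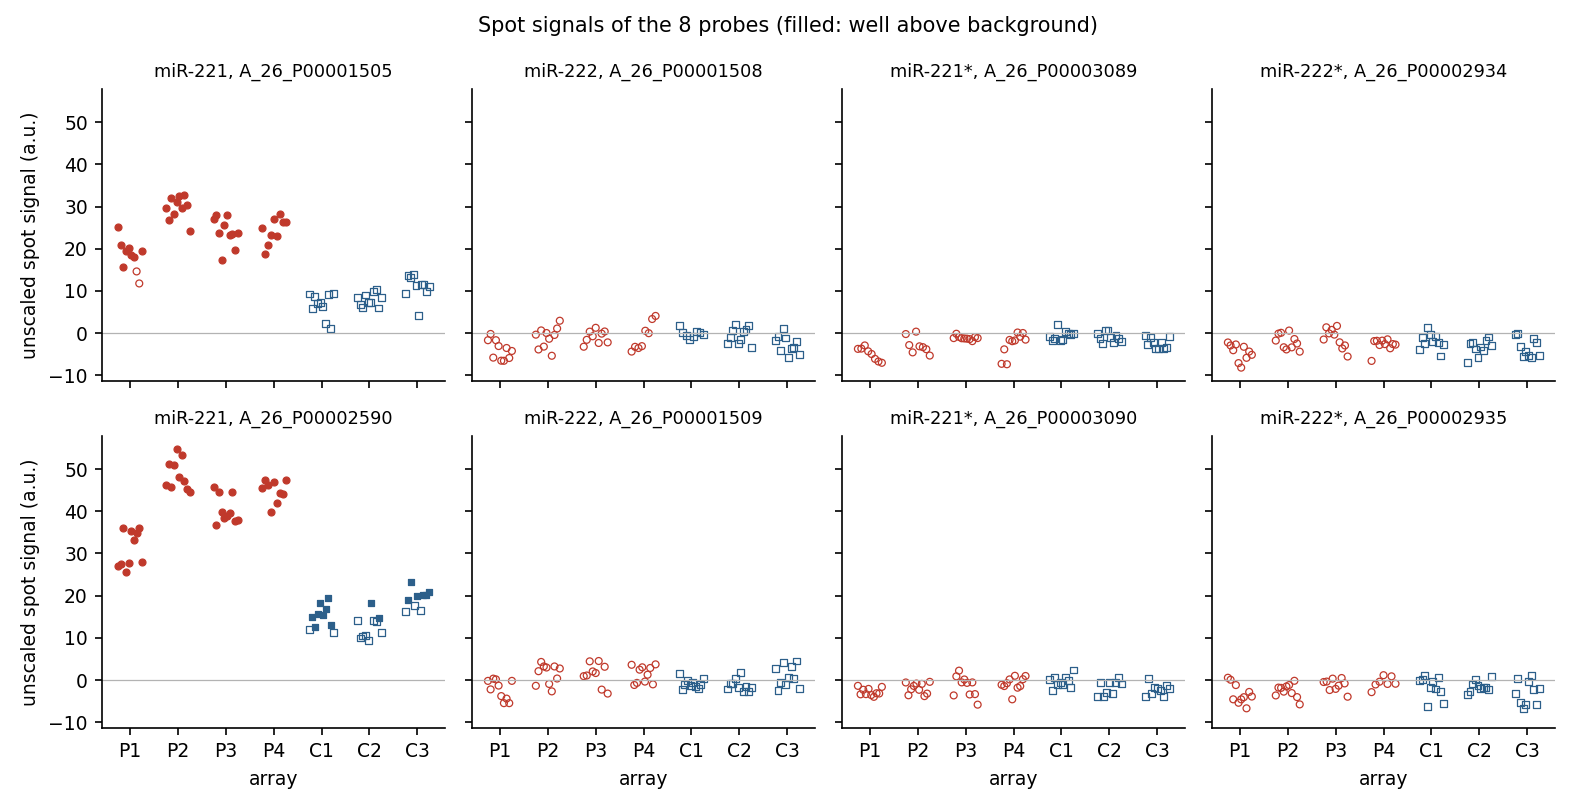
Unscaled, background-subtracted signal of each kept spot in arbitrary units (vertical axis) by array (P1 to P4 are PFOS, red circles; C1 to C3 are control, blue squares) for the 2 probes of each of the 4 members. Filled symbols are spots well above background: miR-221 has them on every array, and miR-222, miR-221* and miR-222* have 0 on any.

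The probes of miR-221 were each brighter on PFOS arrays before scaling. The mean signal of A_26_P00001505 was 18.4, 29.7, 24.0 and 24.3 on PFOS replicates 1 to 4, against 6.61, 7.93 and 10.96 on control replicates 1 to 3. That of A_26_P00002590 was 31.1, 48.7, 40.4 and 44.8 on PFOS arrays, against 15.0, 12.7 and 19.3 on control arrays. For each probe every PFOS array lay above every control array, as for 146 of 320 tested probes (45.6%) before scaling. Among the control arrays replicate 3 was highest for both probes, while the lowest was replicate 1 for the first probe and replicate 2 for the second. Spots of a probe varied around their mean with a coefficient of variation of 5.78% to 20.1% on PFOS arrays. On control arrays, where the same spots are dimmer, it was 11.4% to 44.3%. No value above was scaled for the overall brightness of its array.

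Summed over its probes, the unscaled signal of miR-221 was 49.5, 78.4, 64.3 and 69.1 on PFOS replicates 1 to 4, against 21.6, 20.6 and 30.2 on control replicates 1 to 3. The groups did not overlap, as for 82 of the 175 tested miRNAs (46.9%) before scaling. The ratio of PFOS to control geometric means was 2.71 for miR-221, 1.73 for the median of the miRNAs detected on all arrays and 2.19 for the labelling spike-in, RNA added before labelling. It was 0.930 for the hybridisation spike-in, which is added already labelled. Scaled by the labelling spike-in instead, miR-221 had a log2 fold change of 0.31 (SE 0.26, limma adjusted p = 0.344).

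After arrays were brought to one 75th percentile, taken over miRNAs that all 7 detected, miR-221 stood at 55.0, 63.3, 39.7 and 57.2 on PFOS arrays, against 25.9, 30.7 and 36.9 on control arrays. The lowest PFOS value still lay above the highest control value, as for 23 of 175 tested miRNAs (13.1%). Cyclic loess, the normalization the submitters name, was then applied. The normalised signal became 56.8, 58.7, 38.3 and 54.2 on PFOS replicates 1 to 4, against 25.7, 33.3 and 39.3 on control replicates 1 to 3. The groups now overlapped, with PFOS replicate 3 just below control replicate 3. Groups that did not overlap, higher in PFOS, were found for 17 of the 175 (9.71%), and miR-221 was not among them. This overlap turned with the processing. The groups did not overlap with normexp (nor for 9.71% of tested miRNAs, higher in PFOS), with no background subtracted (8.57%), with the median over spots (10.3%), with the software's total (10.3%), with quantile normalization (6.86%) or with the 75th percentile over all miRNAs (15.4%). They overlapped with the undetected baseline taken off, where 9.71% did not, and under cyclic loess with equal weights, where 1.14% did not.

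**Figure D2:**
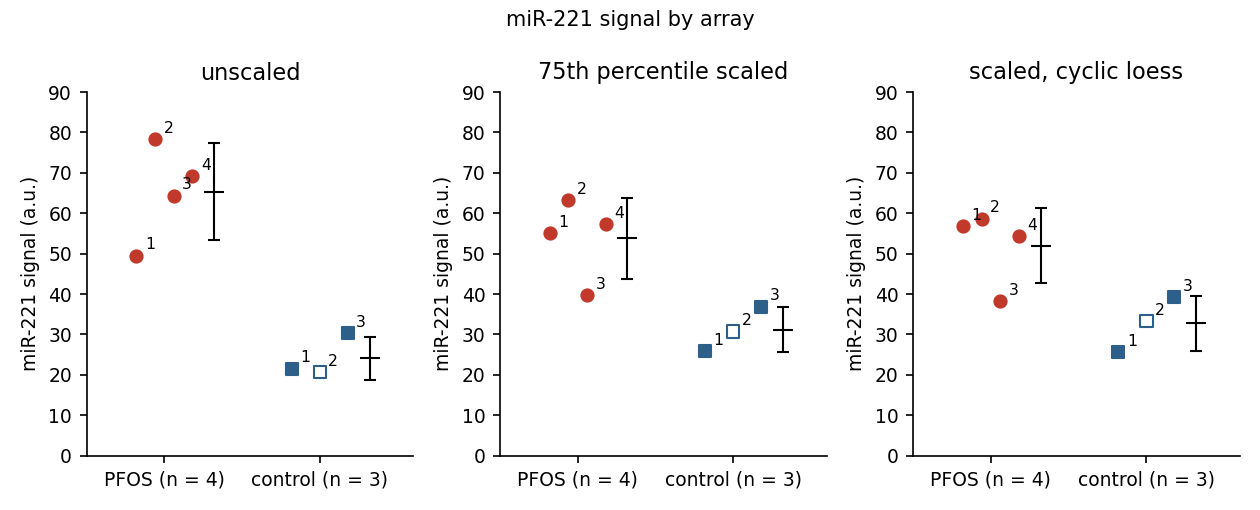
Signal of miR-221 in arbitrary units on each array without scaling, after 75th percentile scaling and after cyclic loess, with PFOS (red circles, n = 4) left of control (blue squares, n = 3). Numbers are replicates, bars are mean ± SD, and the open square is the control array below the detection rule. The groups overlap only in the third panel, where PFOS replicate 3 is at 38.3 and control replicate 3 at 39.3.

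The normalised signal of miR-221 averaged 52.0 ± 9.31 in PFOS livers (SD, n = 4) and 32.8 ± 6.82 in control livers (SD, n = 3). The log2 fold change was 0.67 (SE 0.21, 95% interval 0.18 to 1.16), which is 1.59-fold with an interval of 1.13 to 2.24. The control sums behind this fold include readings of A_26_P00001505, which no control array measured above background, and on control replicate 2 neither probe was detected, so the control level is itself uncertain. In the limma fit across all 175 tested miRNAs the unadjusted p was 0.0154 and the Benjamini-Hochberg adjusted p 0.155, so miR-221 did not pass the threshold of 0.05. No tested miRNA passed it (0%). Unadjusted p-values under 0.05 were reached by 15 miRNAs higher in PFOS (8.57%) and 19 lower in PFOS (10.9%). The difference was the fourth most positive of the 175, after 3 larger ones, and its p ranked 17 from the smallest. Since miR-221 was tested only through its detection on PFOS arrays, its p and its ranks are not independent of that filter.

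All 7 arrays were on 1 slide, in 2 rows that each held both groups. In slide row 1, with 2 PFOS arrays and 1 control array, the geometric mean signal of miR-221 was 57.7 in PFOS livers against 25.7 in the control liver, which is 1.17 higher in log2. In slide row 2, with 2 arrays of each group, it was 45.6 in PFOS livers against 36.2 in control livers, 0.33 higher in log2. The direction was thus the same in both rows, and whether the sizes differ was not tested. With slide row as a block the log2 fold change was 0.67 (SE 0.23, limma adjusted p = 0.203).

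Each probe of miR-221 was also put through the same steps in a table of all probes, where 320 probes were tested. For A_26_P00002590 the normalised signal was 35.7, 41.2, 24.6 and 35.5 in PFOS livers, against 17.8, 18.3 and 24.0 in control livers, and the groups did not overlap, as for 40 of the 320 (12.5%). Its log2 fold change was 0.76 (SE 0.20, limma adjusted p = 0.123), and it was detected on 2 of 3 control arrays. For A_26_P00001505 the values were 22.1, 25.9, 14.2 and 20.2 in PFOS livers, against 8.88, 10.7 and 13.3 in control livers, again without overlap. No control array had this probe well above background, so for its difference only a bound can be formed. That bound is a ratio of geometric means of 1.20, PFOS over control, with no interval. The control values used for it were 12.1, 19.4 and 19.96. PFOS replicate 3, at 14.2, lay below those of control replicates 2 and 3, so at the bound the groups overlapped. The limma fit did not test this bound but the readings as they stand, with geometric means of 20.1 in PFOS livers and 10.8 in control livers, and gave an adjusted p of 0.123. For this bound each control array was given the dimmest reading among its detected probes, or the probe's own reading where that was higher.

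The signal of miR-221 was among the lower ones tested. Its geometric mean over 7 arrays was 42.1, rank 45 of 175 from the dimmest. The 10 tested miRNAs just below it and the 10 just above it in signal had a median log2 fold change of -0.09 and ran from -1.30 to 0.45. Of these 20, 9 were positive and 0 exceeded miR-221, and the highest was miR-802. Because miR-221 was tested only through its PFOS arrays, its place among these 20 is not independent of that filter. Their median SE was 0.19, close to the 0.21 of miR-221. Over all tested miRNAs the fold changes had a median of -0.02 in log2, with a median SE of 0.14. Among the 44 dimmest, the median was -0.19, with 13 positive and 1 larger than that of miR-221.

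**Figure D3:**
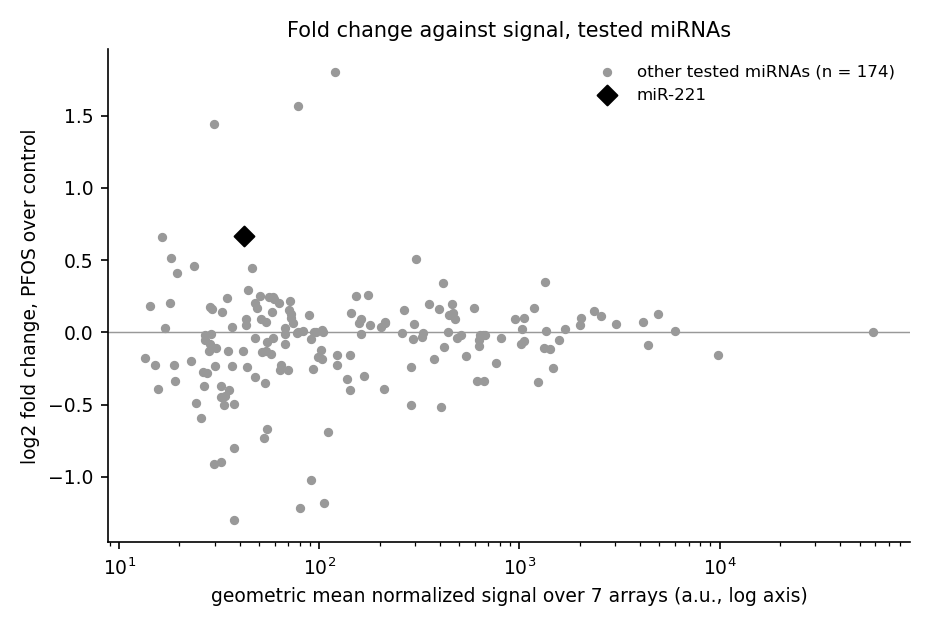
Log2 fold change of PFOS over control (vertical axis) against geometric mean normalised signal over the 7 arrays in arbitrary units (horizontal log axis) for the 175 tested miRNAs. miR-221 (black diamond) lies at 0.67, above the 10 miRNAs next to it in signal on either side and below 3 larger differences. It was tested only through its PFOS arrays, so its place here is not independent of that filter.

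The treatment of background changed the size of the difference. With no background subtracted the log2 fold change was 0.20 (SE 0.06, limma adjusted p = 0.0897), with normexp 0.15 (SE 0.05, adjusted p = 0.115) and in the authors' deposited table, fitted the same way, 0.25 (SE 0.07, adjusted p = 0.0755). Background left in the signal, or an added offset, makes folds of dim miRNAs smaller by construction, and in the deposited table undetected miRNAs had medians of 5.44 to 5.46 in log2. In the authors' deposited table, log2 values of miR-221 were 6.10, 6.30, 6.12 and 6.16 for PFOS replicates 1 to 4, against 5.82, 5.95 and 5.999 for control replicates 1 to 3, without overlap (6.29% of tested miRNAs). With the total that the scanner software gives per miRNA, which leaves out probes it did not detect, the value was 1.16 (SE 0.22, adjusted p = 0.0918). That total was 33.4, 53.6, 43.3 and 47.4 on PFOS arrays, against 10.3, 8.72 and 13.3 on control arrays. On control arrays it held A_26_P00002590 alone.

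Scaling by 1 factor per array shifts all miRNAs of that array alike, so the distance of miR-221 from the median of all tested miRNAs is nearly fixed by construction and only the level moves. With no scaling the log2 fold change of miR-221 was 1.44 and the median 0.69. With the 75th percentile taken over all miRNAs miR-221 was at 0.99 and the median at 0.25, and with the labelling spike-in miR-221 was at 0.31 and the median at -0.43. In the main processing, which can bend the scale with signal, miR-221 lay 0.69 above the median, and with quantile normalization it lay 0.78 above. When cyclic loess weighted every miRNA alike, so that the many miRNAs at the floor counted as much as measured ones, the value was 0.03 with an SE of 1.39, the median was -0.26 and the distance 0.28.

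**Figure D4:**
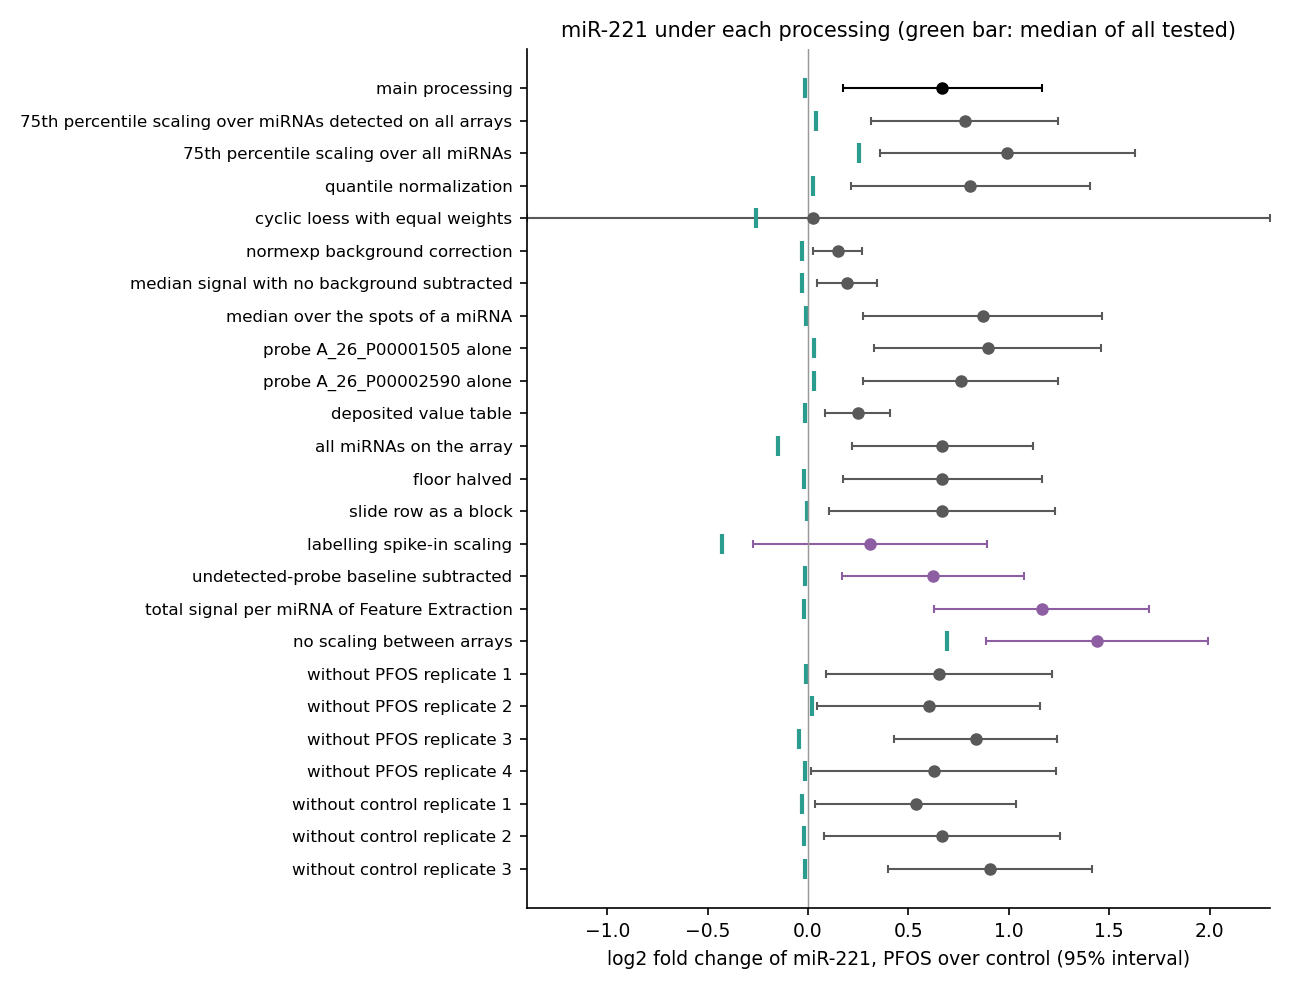
Log2 fold change of miR-221, PFOS over control, with its 95% interval (points and bars) and the median of all tested miRNAs or probes (green bars) under the main processing and each alternative. Purple rows were added later, after the data were seen, and the other rows were planned with earlier results of these data known. The interval under cyclic loess with equal weights runs past both ends of the axis. All points lie above 0, from 0.03 to 1.44.

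miR-222, which shares the seed of miR-221, had 0 of 140 spots well above background, 6 of them with an outlier flag. Summed over its probes, the unscaled signal was -6.20, 0.38, 0.43 and 0.56 on PFOS replicates 1 to 4, against -0.93, -1.76 and -1.77 on control replicates 1 to 3. Values around 0 mean that the spots were about as bright as the background estimated for them. The lowest signal of any single probe detected on an array was 9.98 to 14.4 on PFOS arrays and 10.4 to 17.2 on control arrays. Among 1087 probes of other miRNAs with no flagged spot on any array, the miR-222 probe A_26_P00001509 was brighter than 61.3% to 87.5% on PFOS arrays and than 48.3% to 81.2% on control arrays. For A_26_P00001508 the ranges were 34.2% to 63.4% on PFOS arrays and 42.6% to 66.9% on control arrays. The signals of miR-222 thus lay within the range of undetected probes, and no fold is given.

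PFOS replicate 1 stood apart for miR-222. A_26_P00001508 gave -3.93 there, against -1.002, -0.93 and -0.80 on the other PFOS arrays and -0.13, -0.54 and -2.70 on control arrays. A_26_P00001509 gave -2.27 there, against 1.38, 1.36 and 1.36 on the other PFOS arrays and -0.80, -1.22 and 0.93 on control arrays. The median over the 1087 undetected probes was also lowest on that array, -3.04 against -0.64 to -1.66 on the other PFOS arrays and -0.74 to -2.15 on control arrays. With that median taken off every probe of its array, the log2 fold change of miR-221 was 0.62 (SE 0.19, limma adjusted p = 0.142).

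The star arms, which are the 5′ products of the same hairpins, gave 0 of 140 flagged spots each. The unscaled signal of miR-221* was -7.75 to -2.65 on PFOS arrays and -4.70 to -0.85 on control arrays. That of miR-222* was -7.86 to -2.43 on PFOS arrays and -6.34 to -3.70 on control arrays. In both, the groups overlapped. Star arms on no array were common, since of the 86 tested miRNAs with a star arm on the array, 60 had one detected on none of the 7, 9 had one detected on too few arrays to be tested and 17 had a tested one. In the authors' deposited table the 3 undetected members lay near the median of undetected miRNAs, which was 5.44 to 5.45 on PFOS arrays and 5.45 to 5.46 on control arrays. There miR-222 had log2 values of 5.47 to 5.53 in PFOS livers and 5.45 to 5.49 in control livers. miR-221* had 5.37 to 5.45 in PFOS livers and 5.43 to 5.47 in control livers, and miR-222* had 5.38 to 5.46 in PFOS livers and 5.35 to 5.41 in control livers. The groups overlapped for each of the 3.

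With miR-222 and both star arms undetected, neither the ratio of miR-221 to miR-222 nor the ratio of the arms could be formed on any array, and the agreement of the cluster partners could not be tested. All 3 lay below the floor of 12.1 on every array after scaling. The 414 miRNAs that were at the floor throughout had a log2 difference of -0.15 after normalization, which is what the steps give where nothing was measured.

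The miRNAs whose normalised log2 signal ran most like that of miR-221 over the 7 arrays were miR-26b, miR-200a and miR-455*, with Pearson r of 0.87, 0.86 and 0.84. The correlations are a description of 7 arrays that share their normalization, and the median r over the 174 other tested miRNAs was -0.17. miR-26b is bright, at 2458 in PFOS and 2220 in control livers, and its log2 fold change was 0.15 (SE 0.07, limma adjusted p = 0.352). Its signal was 2519, 2543, 2298 and 2481 on PFOS replicates 1 to 4, against 2238, 2097 and 2331 on control replicates 1 to 3. As with miR-221, PFOS replicate 3 was the lowest of its group, control replicate 3 was the highest of its own, and these 2 overlapped. For miR-200a, of an epithelial family, PFOS arrays had 97.9, 115, 119 and 181, against 24.4, 47.3 and 64.9 on control arrays, with a log2 fold change of 1.57 (SE 0.37, limma adjusted p = 0.131) and no overlap. miR-455* had detection on 3 PFOS arrays and 0 control arrays and lay near the floor, at 15.8 to 25.8 in PFOS and 11.7 to 14.4 in control livers.

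**Figure D5:**
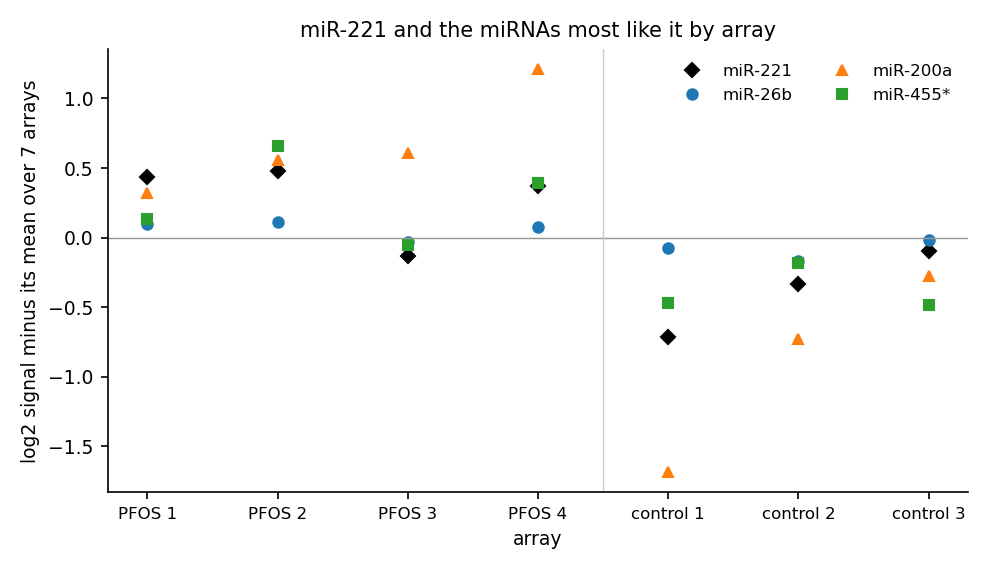
Log2 normalised signal of miR-221, miR-26b, miR-200a and miR-455* on each array minus that miRNA's own mean over the 7 arrays (vertical axis), PFOS arrays left of the grey line and control arrays right of it. Values of miR-26b stay close to 0 while those of miR-200a spread most, and control replicate 1 is lowest for miR-221 and miR-200a.

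Other miRNAs linked with growth of the liver were read for context. Of 20 miRNAs listed for proliferation and liver regeneration, 19 were on the array and 15 were tested. Fold changes were positive for 8 and negative for 7, with a median of 0.04 in log2, against -0.02 over all tested miRNAs, and 0 passed in limma. Of this list, miR-17-5p had a log2 fold change of 0.24 (SE 0.07), miR-93 0.25 (SE 0.09) and miR-20a 0.19 (SE 0.07), the members of smallest p. Next by p came miR-34a, a target of p53, at -0.69 (SE 0.25), the largest change of the list. Of 7 other miRNAs reported to target Cdkn1b or Cdkn1c, 6 were on the array and 4 were tested, 2 positive and 2 negative, with a median of 0.01. Among them miR-152 was at 0.25 (SE 0.10) and miR-24 at -0.21 (SE 0.10), and neither passed. The RefSeq table placed 102 of the array's miRNAs on chromosome X alone, of which 20 were tested, miR-221 included, 10 positive and 10 negative with a median of 0.00. None of the 20 passed, and miR-221 had the most positive value. The smallest p-values there were those of miR-3573-3p at -0.60 (SE 0.15), miR-20b-5p at 0.26 (SE 0.07) and miR-652* at -0.34 (SE 0.10). miR-3573-3p was dim, at 21.6 in PFOS and 32.6 in control livers. It was detected on 3 PFOS arrays and 1 control array, so its fold is uncertain.

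Markers of the main liver cell types were read beside miR-221, and each one on the array was detected on at least 1 array. The hepatocyte markers put the samples in liver, with 7 of 8 listed miRNAs on the array and all 7 tested. Their summed signal was 71010 to 74310 in PFOS and 72960 to 73410 in control livers, most of it miR-122. Fold changes were positive for 4 and negative for 3, with a median of 0.00. Smallest in p were miR-122* at -0.25 (SE 0.08), miR-101a at 0.20 (SE 0.07) and miR-30a at 0.17 (SE 0.07). For these 3 the groups did not overlap (9.71% of tested miRNAs in each direction). The 5 stellate cell and fibroblast markers had 1 positive and 4 negative fold changes, a median of -0.04 and a summed signal of 746 to 1047 in PFOS and 819 to 1023 in control livers. The wider stellate cell and fibroblast list had 13 of 14 tested, 5 positive and 8 negative, with a median of -0.02. Of that wider list miR-29c was at 0.35 (SE 0.08) and miR-152 at 0.25 (SE 0.10). miR-145, second by p in that list and also among the 5 markers, was near the floor at 14.1 in PFOS livers and 16.5 in control livers, without overlap (9.71% of tested miRNAs, lower in PFOS). It was detected on 3 PFOS arrays and 0 control arrays, so its lower normalised signal in PFOS livers is no measured fold. The endothelial markers, both arms of miR-126, had values of 0.02 (SE 0.09) and 0.00 (SE 0.22) and a summed signal of 1714 to 1854 in PFOS and 1571 to 1936 in control livers. The wider endothelial list had 7 of 8 tested, 2 positive and 5 negative, with a median of -0.02, and held miR-17-5p at 0.24, miR-92a at -0.17 and miR-27a at -0.10. Leukocyte and Kupffer cell markers had 5 of 6 tested, 2 positive and 3 negative, a median of -0.02 and a summed signal of 1068 to 1380 in PFOS and 1178 to 1303 in control livers. Smallest in p among them was miR-223 at -0.23 (SE 0.09), with groups that overlapped. The erythroid markers miR-451, at -0.02 (SE 0.41), and miR-144, at -0.18 (SE 0.33), were both negative, with a median of -0.10. Their summed signal was 438 to 1079 in PFOS and 518 to 930 in control livers. At the limma threshold 0 miRNAs of these lists passed in either direction.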

How the data were processed

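Liver total RNA of 7 rats was hybridised to 1-colour Agilent rat miRNA arrays on 1 slide. The deposited spot files hold fluorescence intensity from the scanner software Feature Extraction (10.7.3.1 per the labels). Its processed intensity had background taken off and was not put on one scale across arrays, per the file headers, and the detection and outlier flags are its own. A deposited table gives log2 signal per miRNA, and cyclic lowess is the authors' normalization, per the labels.

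From these, spots of a probe were averaged without outlier-flagged ones and the probes of a miRNA were summed. Each array was set to the same 75th percentile of the miRNAs detected on all 7, floored at the 1st percentile of detected values (12.1), logged, and normalized by cyclic loess (limma 3.58.1, R 4.3.3, span 0.7, 3 iterations, weighted on miRNAs detected on all arrays). Groups were compared with lmFit and eBayes, adjusted over 175 miRNAs. The fit was checked on simulated data, with a requirement set only for changes larger than that of miR-221. Normexp used an offset of 50 on the median spot signal, since the mean is not among the columns used here.

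Groups came from the sample labels, and replicate numbers only name arrays. Members, lists and alternatives were chosen with earlier results of these data known. The named miRNAs were the members, the 3 of highest r with miR-221 and up to 3 per list by smallest p, plus miR-34a and miR-802, chosen after their values were seen. The number of arrays limits the precision. Sequences are from RefSeq (GRCr8), while the array's annotation is of another assembly. Plots used matplotlib 3.10.9 in Python 3.11.15.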

Additional observations from a re-analysis of the deposited data

Results flagged for a closer look

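In 13 measures it was asked whether 1 of the 4 PFOS arrays stood apart from the remaining 3, and this was so for 2. The measures were the unscaled signals of the 8 member probes and of miR-221, and the normalised signals of miR-221 and of the 3 miRNAs most like it. Chance gives about 1 in 20 for a single measure. The 13 are not independent, since probes of the same miRNA share arrays and miR-221 enters more than once. The 2 therefore cannot be weighed against that rate. For the miR-222 probe A_26_P00001508 the gap between PFOS replicate 1 and the next array took 0.935 of the whole range, at -3.93 against -1.002 to -0.80 on the other 3. For the miR-222 probe A_26_P00001509 the gap took 0.994 of the range, at -2.27 against 1.36 to 1.38. Both probes were undetected on every array, and the undetected probes of other miRNAs were also lowest on that array, with a median of -3.04. For miR-221 after normalization the gap, on PFOS replicate 3, was 0.816 of the range, which is under the limit.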

How the results depend on the processing

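The log2 fold change of miR-221 was positive in 13 alternatives, which were planned with earlier results of these data known. It ran from 0.03 to 0.99 and passed in 0 of them (limma adjusted p of 0.0755 to 0.998). Without each array in turn it ran from 0.54 (without control replicate 1) to 0.91 (without control replicate 3) and did not pass. Of 4 alternatives added later, after the data were seen, it passed in 1, without any scaling between arrays (1.44, limma adjusted p = 0.0102). There 53 miRNAs passed as higher and 0 as lower. The count of miRNAs past the threshold, 0 in the main processing, was 3 (3 higher, 0 lower) when the 75th percentile was taken over all 677 miRNAs, 22 (6 higher, 16 lower) with normexp, 20 (5 higher, 15 lower) without background subtraction and 9 (0 higher, 9 lower) in the authors' deposited table. It was 4 (3 higher, 1 lower) with slide row as a block, 1 (lower) when all 677 were tested, 8 (all lower) under labelling spike-in scaling and 1 (higher) with the software's total per miRNA. The cause of these moves was not tested. In a table of single probes, used for each miR-221 probe alone, 2 of 320 probes passed, both higher. With the 75th percentile alone, quantile normalization, equal weights, the median over spots, the halved floor, the undetected baseline, miRNAs detected on all 7 arrays, and without each array in turn, it was 0. Restricting to miRNAs detected on all 7 arrays removed miR-221. The ratios of miR-221 to miR-222 and of the arms were not formed, because miR-222, miR-221* and miR-222* were below the floor on every array. These 3 did not meet the detection rule for the main fit. They were part of the fit of all 677, but as values at the floor, so no result is given for them. No paired analysis was possible because the labels give no shared replicate numbers. Dimness over background limits every value here.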
